A study of Mus musculus with 28 samples.

Results

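The enzymes that write DNA methylation and their main cofactors, Dnmt1, Dnmt3a, Dnmt3b, Dnmt3l and Uhrf1, were followed through the reprogramming of mouse fibroblasts into induced pluripotent stem (iPS) cells. The 5 genes were taken by name, with every probe set that carried their symbol: 11 of 18003 probe sets with 1 gene symbol, and 5 of 11807 genes, on the larger of 2 array designs, and 12 of 20393 probe sets on the smaller. The values were RMA signals on a log2 scale, so that a difference of 1 is 2-fold. Uhrf1 and Dnmt3b had 2 probe sets each and Dnmt3a had 5. Dnmt1 and Dnmt3l had 1 each on the larger design, and Dnmt1 had 2 on the smaller. The probe set of highest mean stood for its gene, and the others were read beside it.

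Mouse embryonic fibroblasts (MEFs) came from E13.5 embryos of a C57BL6/129 strain (the strain is given for the larger set of arrays) that carried the OKSM cassette of reprogramming factors and a Rosa26-M2rtTA transactivator allele, either heterozygous or homozygous for both. All groups shared these alleles, and reprogramming was run with doxycycline in serum medium with LIF. On days 3, 6, 9 and 12 cells were sorted into a Thy1+ fraction, a double-negative fraction and an SSEA1+ fraction. Thy1 is a surface protein of fibroblasts, and SSEA1 is a surface carbohydrate gained during reprogramming. A GFP+ fraction was sorted on day 12 only, and the labels do not name its reporter gene. There were 2 arrays (M2 and M3) of MEFs and of every fraction on days 3 and 6, 1 array (M2) of every later fraction, and 3 of iPS cells (1-3, 1-5 and 1-6), preplated to remove feeder cells, which makes 24 arrays in 15 groups. A separate table of 4 arrays held day 6 SSEA1+ cells that were EpCAM- or EpCAM+, 2 arrays each, where EpCAM is an epithelial surface protein. No label says that replicates were separate animals or cultures, so each p-value measures the spread between arrays, which may be technical. In sorted bulk cells, fewer cells of a type and less RNA per cell cannot be told apart.

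Methylation of cytosines in CpG dinucleotides is kept through cell division because Uhrf1 binds DNA methylated on the old strand only and brings Dnmt1, the maintenance methyltransferase, to the newly made strand. Dnmt3a and Dnmt3b place methyl groups on sites that had none. Dnmt3l has no catalytic activity of its own and stimulates these enzymes, and it is best known from germ cells and early embryos. Pluripotent stem cells are known to express the whole set, while most somatic cells rely mainly on the maintenance pair.

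The labelled cell types were visible in their markers. The mean of the fibroblast marker list was between 11.85 and 11.89 in MEFs and between 6.51 and 7.46 in iPS cells, and that of the pluripotency list was between 4.38 and 4.45 in MEFs and between 11.28 and 11.55 in iPS cells. Epidermal marker means stayed between 5.08 and 5.63 and macrophage marker means between 4.43 and 5.14 over the 24 arrays. The day 6 Thy1+ M2 array stood apart: the excess of 3′ over 5′ signal was 1.49 for Actb and 1.78 for Gapdh, against 0.684 to 1.18 and 0.579 to 1.11 on the other arrays. It read 10.13 for Uhrf1, 10.99 for Dnmt3a and 4.29 for Dnmt3b, where the M3 array of the same group read 8.61, 8.30 and 6.18. The part of RNA quality in these values was not tested, and member and list results that rest on this pair are given with and without the M2 array.

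**Figure D1:**
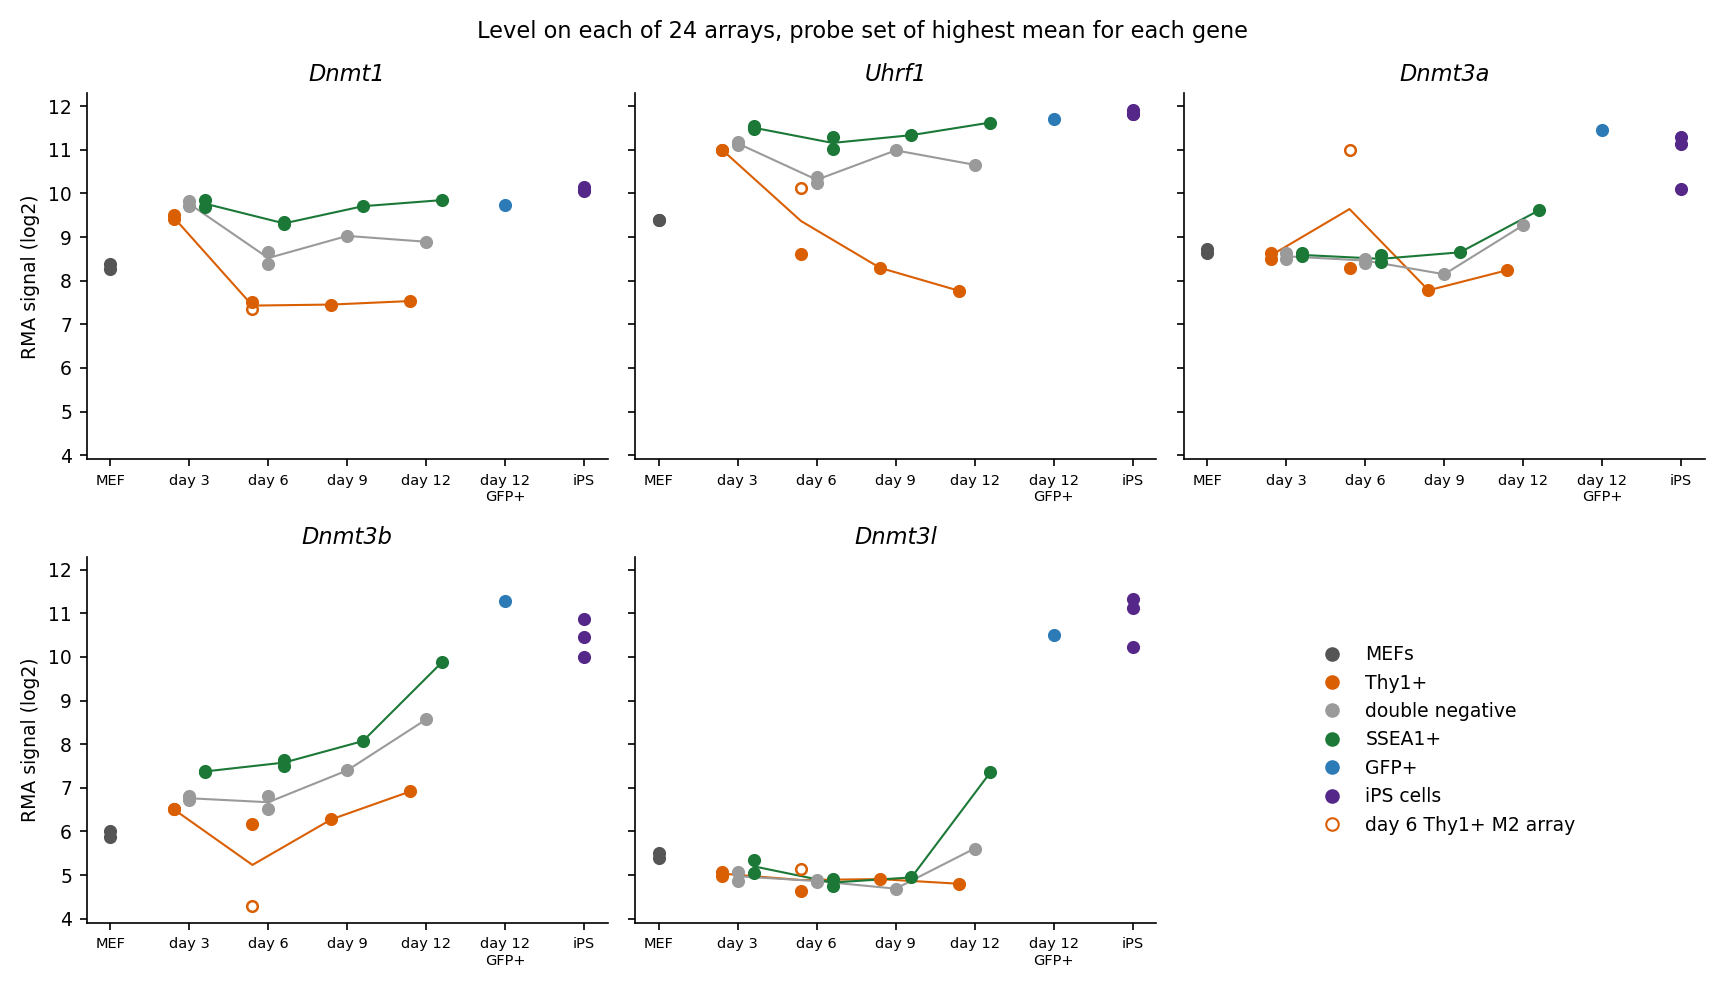
RMA signal (log2) of the probe set that stood for each gene, 1 point per array, in MEFs, the sorted fractions by day, day 12 GFP+ cells and iPS cells; lines join group means of a fraction, and the open circle is the day 6 Thy1+ M2 array. Dnmt1 and Uhrf1 were already high on day 3 and spread apart by fraction afterwards, the SSEA1+ arrays of Dnmt3b read 7.36 and 7.39 on day 3 and 9.88 on day 12, and Dnmt3l was high in GFP+ and iPS cells only, with 7.36 in day 12 SSEA1+ cells.

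All 5 members were called higher in iPS cells than in MEFs, but the call of Dnmt3a rested on which of its probe sets stood for it. Among the 11807 genes tested, 15.4% were called higher, where a call needs an adjusted p under 0.05 and at least a 2-fold difference in limma's moderated test with Benjamini-Hochberg adjustment over all genes. Dnmt3l differed most, with 5.40 and 5.50 in MEFs and 10.22, 11.12 and 11.33 in iPS cells (log2 difference 5.44, SE 0.25, limma adjusted p = 2.55e-10). The iPS mean was 10.89 ± 0.59 (SD, n = 3) and the MEF mean 5.45 ± 0.068 (SD, n = 2). Dnmt3b was at 5.87 and 6.02 in MEFs and at 9.99, 10.46 and 10.86 in iPS cells (log2 difference 4.50, SE 0.38, limma adjusted p = 1.25e-07). Uhrf1 read 9.39 and 9.40 in MEFs and 11.81, 11.81 and 11.91 in iPS cells (log2 2.45, SE 0.29, limma adjusted p = 3.59e-06). Dnmt1 read 8.27 and 8.38 in MEFs and 10.06, 10.08 and 10.16 in iPS cells (log2 1.77, SE 0.12, limma adjusted p = 8.1e-09). No array of 1 group overlapped the other for any of these 4 genes. The share of all genes whose arrays lay apart was not counted, here or where the same is said below. No fold is given for Dnmt3l and Dnmt3b, since no detection call says whether their MEF levels lay above background, and a difference from background understates the change.

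Dnmt3a was the member whose probe sets did not move together. The probe set of highest mean, 1423064_at, read 8.64 and 8.74 in MEFs and 10.11, 11.14 and 11.30 in iPS cells (log2 2.16, SE 0.53, limma adjusted p = 0.00294). It stood for the gene through its level in GFP+ and iPS cells: over the other 20 arrays its mean was 8.69, below that of 1423063_at at 8.98. With the probe set chosen on those 20 arrays, a choice made after the data were seen, 1423063_at stood for Dnmt3a, the difference was -0.46 (SE 0.11, limma adjusted p = 0.00287), and 4 of 5 members were called higher. Dnmt3a values elsewhere on the larger design are those of 1423064_at unless another probe set is named. In a fit over all 18003 probe sets, 1423066_at was also higher in iPS cells, by 1.07 (SE 0.28, limma adjusted p = 0.00442), with iPS array 1-3 at 8.23, near the MEF arrays at 7.87 and 7.97. Probe set 1460324_at went the other way. It read 8.57 and 8.78 in MEFs and 7.53, 7.59 and 7.86 in iPS cells, a difference of -1.01 (SE 0.12, limma adjusted p = 4.66e-06). Probe set 1423063_at was lower by less than 2-fold (-0.46, SE 0.11, limma adjusted p = 0.00312), and 1423065_at had a difference of 0.24 (SE 0.26, limma adjusted p = 0.464). So 2 of the 5 Dnmt3a probe sets were called higher in iPS cells, 1 was called lower and 2 were not called. With the mean of all probe sets standing for each gene, the Dnmt3a difference was 0.40 (limma adjusted p = 0.124), and the gene was no longer called. The array annotation used here does not say which transcript each probe set reads.

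**Figure D2:**
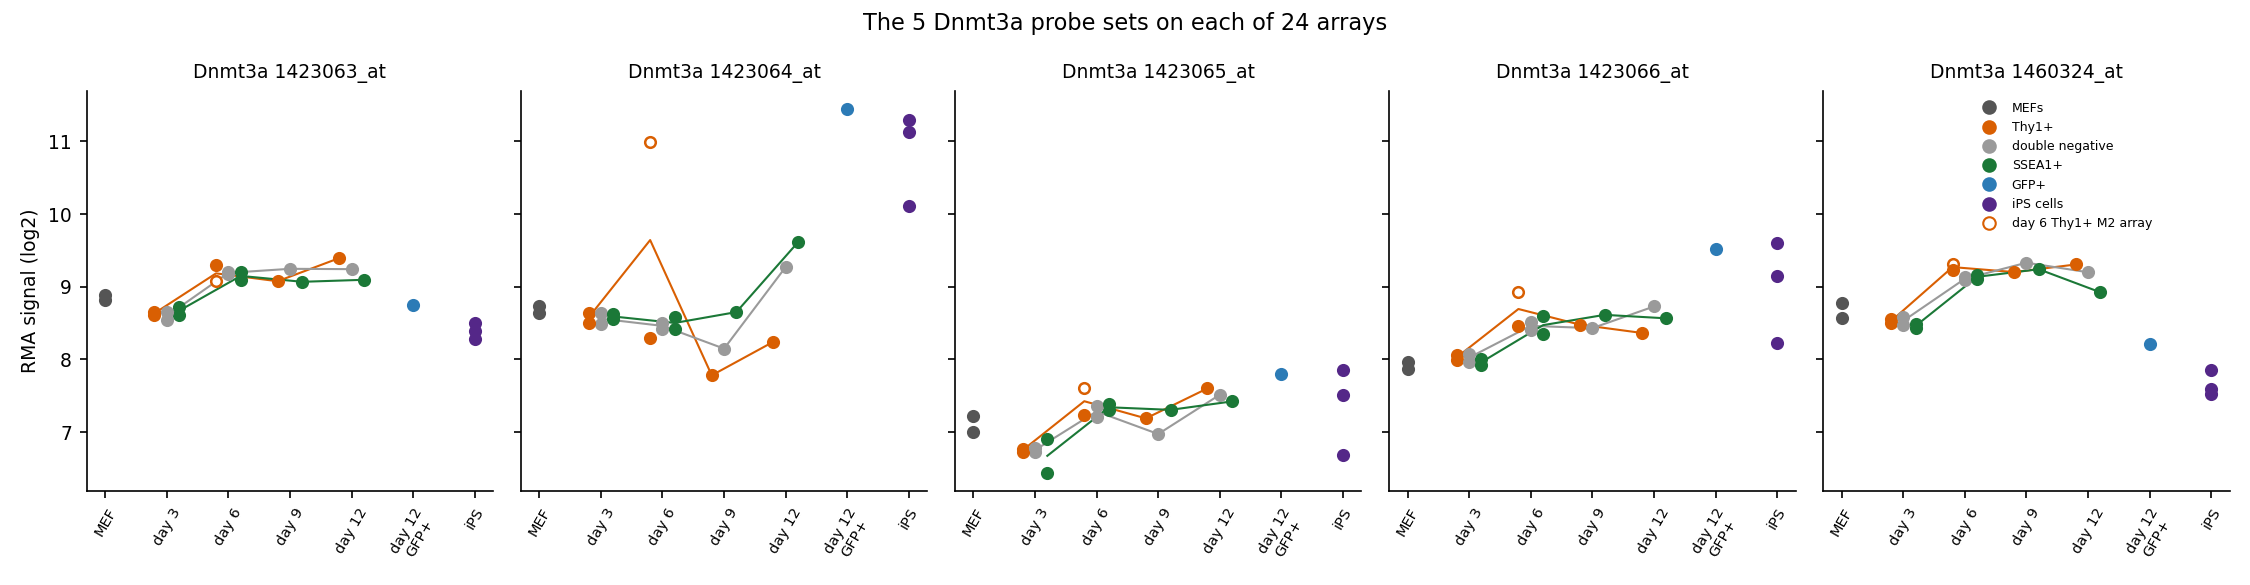
RMA signal (log2) of each of the 5 Dnmt3a probe sets, 1 point per array, with lines joining group means of a fraction. The group means of 1423064_at and 1423066_at were highest in GFP+ and iPS cells, with iPS array 1-3 lowest of its group, while 1460324_at and 1423063_at were above 9 in most sorted arrays from day 6 onward and lowest in iPS cells.

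The Dnmt3a probe sets parted in some steps and moved alike in others. Over the 24 arrays the correlation of 1423063_at with 1460324_at was 0.924, that of 1423065_at with 1423066_at 0.824 and that of 1423064_at with 1423066_at 0.763. Probe set 1423064_at had a correlation of -0.585 with 1460324_at and -0.449 with 1423063_at, and the other 5 pairs lay between -0.157 and 0.53. These are descriptions over arrays that share groups, labelling and normalization. In the day 6, 9 and 12 sorted fractions other than GFP+ cells, 1460324_at lay between 8.92 and 9.33, above both MEF arrays, and in the day 3 fractions it lay between 8.44 and 8.58. From day 3 to day 6 of SSEA1+ cells it rose by 0.68 (limma adjusted p = 0.0106, under 2-fold), and the differences of 1423063_at (0.48) and 1423066_at (0.51) had the same sign without passing the threshold (limma adjusted p = 0.0549 and 0.599). Probe set 1460324_at was higher in Thy1+ cells of days 9 and 12 than in MEFs by 0.58 (SE 0.13, limma adjusted p = 0.00516), under 2-fold. It then read 8.21 in day 12 GFP+ cells, 0.72 below day 12 SSEA1+ cells, with 1 array each. Probe set 1423064_at instead stayed between 7.78 and 8.74 in MEFs and in the fractions of days 3 to 9, apart from the day 6 Thy1+ M2 array at 10.99. It read 9.27 in day 12 double-negative cells, 9.61 in day 12 SSEA1+ cells and 11.45 in GFP+ cells. The M3 array of the same day 6 Thy1+ group read 8.30.

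The second probe sets of the other genes went the same way as the ones that stood for them between iPS cells and MEFs. Uhrf1 1415811_at was higher by 3.08 (SE 0.20) and Dnmt3b 1418351_a_at by 3.79 (SE 0.32). Over the 24 arrays the correlation within the gene was 0.884 for Uhrf1 and 0.936 for Dnmt3b.

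Within 3 days of induction the maintenance pair rose in every fraction. Uhrf1 went from 9.39 and 9.40 in MEFs to 11.00 and 11.01 in day 3 Thy1+ cells, 11.10 and 11.19 in double-negative cells and 11.48 and 11.54 in SSEA1+ cells. Dnmt1 went from 8.27 and 8.38 to 9.41 and 9.51, 9.70 and 9.82, and 9.68 and 9.85 in the same order. All 6 day 3 arrays lay above both MEF arrays for both genes. Against MEFs, Uhrf1 was higher by 1.61 in Thy1+ (limma adjusted p = 0.00146), 1.75 in double-negative (0.000649) and 2.11 in SSEA1+ cells (9.67e-05), with an SE of 0.31 each. Dnmt1 was higher by 1.13 (limma adjusted p = 1.24e-05), 1.44 (1.01e-06) and 1.44 (6.52e-07), with an SE of 0.13 each. These 3 comparisons share the MEF arrays.

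Dnmt3b was the only other member called on day 3, and in SSEA1+ cells only. It read 6.51 and 6.52 in day 3 Thy1+ cells, 6.72 and 6.81 in double-negative cells and 7.36 and 7.39 in SSEA1+ cells. All its day 3 arrays lay above both MEF arrays (5.87 and 6.02). Against MEFs the differences were 0.57, 0.82 and 1.43 (SE 0.42), with limma adjusted p = 0.41, 0.183 and 0.0151. Without the day 6 Thy1+ M2 array in the fit the SE of these differences was 0.20. The limma adjusted p were then 0.0441 in Thy1+, 0.00544 in double-negative and 4.98e-05 in SSEA1+ cells, with Thy1+ and double-negative cells under 2-fold. Leaving out each of the 4 arrays of the SSEA1+ comparison in turn gave 1.36 to 1.51, and the call was lost each time (limma adjusted p from 0.0562 to 0.0824), and with the mean of its probe sets it was 0.96. Dnmt3a and Dnmt3l differed from MEFs by -0.13 to -0.10 and by -0.48 to -0.25 in the 3 fractions, with no call. That made 3 of 5 members called higher in SSEA1+ cells (7.33% of all genes), 2 of 5 in Thy1+ cells (5.27%) and 2 of 5 in double-negative cells (5.72%). Between day 3 SSEA1+ and Thy1+ cells 0 of 5 members were called, where 1.73% of all genes were called in either direction. The differences there were 0.86 for Dnmt3b, 0.51 for Uhrf1 and 0.31 for Dnmt1, and none passed limma's threshold (adjusted p = 0.392, 0.564 and 0.273). Without the day 6 Thy1+ M2 array in the fit Dnmt3b (limma adjusted p = 0.0165) and Uhrf1 (0.0087) passed it at the same differences, under 2-fold.

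After day 3 the maintenance pair parted by fraction. In Thy1+ cells, which kept the fibroblast surface marker, Dnmt1 fell from 9.41 and 9.51 on day 3 to 7.36 and 7.51 on day 6, then read 7.45 on day 9 and 7.53 on day 12. The Dnmt1 change from day 3 to day 6 was -2.03 (SE 0.13, limma adjusted p = 1.41e-07), and -1.95 without the M2 array. Over the same days the Uhrf1 change was -1.63 (SE 0.31, limma adjusted p = 0.00203), with the day 6 arrays at 10.13 (M2) and 8.61 (M3). Without the M2 array its fall was larger, -2.39, and without M3 it was -0.88 and under 2-fold. Uhrf1 read 8.30 on day 9 and 7.77 on day 12 in Thy1+ cells, both below MEFs. Dnmt3b also passed as lower on day 6 (-1.28, SE 0.42, limma adjusted p = 0.0367), but its arrays read 4.29 (M2) and 6.18 (M3), and without M2 the value was -0.33 (limma adjusted p = 0.41). With only the groups compared in the fit neither Uhrf1 (limma adjusted p = 0.227) nor Dnmt3b (0.359) was called. In all, 3 of 5 members were called lower, against 4.57% of all genes.

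In SSEA1+ cells the same pair stayed high. The 6 SSEA1+ arrays of days 3 to 12 lay between 11.03 and 11.63 for Uhrf1 and between 9.29 and 9.85 for Dnmt1, all above both MEF arrays. From day 3 to day 6 of SSEA1+ cells 0 of 5 members were called (1.8% of all genes in either direction). Dnmt1 had the lowest adjusted p there, with a difference of -0.45 (SE 0.13, limma adjusted p = 0.0734, and 0.0234 without the day 6 Thy1+ M2 array in the fit). Double-negative arrays lay between 10.25 and 11.19 for Uhrf1 and between 8.39 and 9.82 for Dnmt1 and over all days overlapped the SSEA1+ range for both genes. Within each day every SSEA1+ array lay above the double-negative arrays for Uhrf1, and for Dnmt1 on days 6, 9 and 12 but not on day 3.

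On day 6, SSEA1+ cells exceeded Thy1+ cells for Dnmt1 by 1.88 (SE 0.13, limma adjusted p = 2.81e-07), for Uhrf1 by 1.79 (SE 0.31, limma adjusted p = 0.000758) and for Dnmt3b by 2.35 (SE 0.42, limma adjusted p = 0.000853). That was 3 of 5 members called higher, against 5.89% of all genes. Without the M2 array of the Thy1+ cells the differences were 1.81, 2.55 and 1.40, and all 3 calls held. With only these 4 arrays in the fit, Dnmt1 alone was called, and the adjusted p of Dnmt3b and Uhrf1 were 0.124 and 0.142 in limma. Dnmt3a read 8.42 and 8.58 in SSEA1+ cells, and its difference changed sign with the M2 array, from -1.14 with it to 0.21 without it.

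By days 9 and 12 the SSEA1+ cells exceeded Thy1+ cells for 4 of 5 members (7.17% of all genes were called higher). Each fraction had 1 array on each of these days, so the test used the spread of the replicated groups. Uhrf1 read 11.34 and 11.63 in SSEA1+ cells against 8.30 and 7.77 in Thy1+ cells, a difference of 3.45 (SE 0.31, limma adjusted p = 1.01e-06). Dnmt1 read 9.71 and 9.85 against 7.45 and 7.53, a difference of 2.28 (SE 0.13, limma adjusted p = 1.23e-08). Dnmt3b differed by 2.38 (SE 0.42, limma adjusted p = 0.000413) and Dnmt3l by 1.30 (SE 0.28, limma adjusted p = 0.00191). The Dnmt3l difference came from day 12, where it read 7.36 against 4.80, while on day 9 it read 4.95 against 4.91. Dnmt3a differed by 1.12 (limma adjusted p = 0.163), and without the day 6 Thy1+ M2 array in the fit it was called too (limma adjusted p = 0.00356).

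The change from day 3 to days 9 and 12 differed between SSEA1+ and Thy1+ cells for Uhrf1, by 2.94 (SE 0.44, limma adjusted p = 0.000512), and for Dnmt1, by 1.97 (SE 0.18, limma adjusted p = 9.42e-06). This is the interaction of day and fraction, in which 3.87% of all genes were called higher. Dnmt3b, Dnmt3l and Dnmt3a had interaction values of 1.51, 1.13 and 1.11 and were not called (limma adjusted p = 0.124, 0.0811 and 0.499). Without the day 6 Thy1+ M2 array in the fit Dnmt3b (0.00189) and Dnmt3l (0.0395) were called at the same values. Compared with MEFs, Thy1+ cells of days 9 and 12 had lower Uhrf1, by -1.36 (SE 0.31, limma adjusted p = 0.00581), the only 1 of 5 members called (4.56% of all genes were called lower). Its other probe set, 1415811_at, differed by -0.41 (limma adjusted p = 0.207). Dnmt1 was lower by less than 2-fold (-0.83, SE 0.13, limma adjusted p = 0.000259).

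Fitted over all 4 days with terms for day and fraction, SSEA1+ cells exceeded Thy1+ cells in Uhrf1 by 1.91 (SE 0.38, limma adjusted p = 0.000906), in Dnmt3b by 1.86 (SE 0.29, limma adjusted p = 0.000125) and in Dnmt1 by 1.49 (SE 0.23, limma adjusted p = 0.000103). These were 3 of 5 members, with 3.5% of all genes called higher. Dnmt3l differed by 0.47 (SE 0.26), and Dnmt3a by -0.0016 with the day 6 Thy1+ M2 array and by 0.48 without it (limma adjusted p = 0.0199, under 2-fold). Between SSEA1+ and double-negative cells 0 of 5 members were called, where 0.898% of all genes were. The largest differences there were 0.84 for Dnmt3b (SE 0.29, limma adjusted p = 0.0991) and 0.62 for Uhrf1 (SE 0.38, limma adjusted p = 0.381). Without the day 6 Thy1+ M2 array in the fit Dnmt3b passed the p threshold at the same difference, under 2-fold (SE 0.20, limma adjusted p = 0.0162).

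The levels of Dnmt1 and Uhrf1 ran with those of DNA replication genes. The S phase list holds 17 measured genes of the replication licensing, helicase and nucleotide supply machinery, among them the Mcm subunits and Rrm2. All 17 were called higher on day 3 in each of the 3 fractions, with a median difference of 1.55 in Thy1+, 1.73 in double-negative and 2.19 in SSEA1+ cells (medians of all genes 0.01, 0.03 and 0.05). In the same order 5.27%, 5.72% and 7.33% of all genes were called higher, and 4.57% were lower from day 3 to day 6 of Thy1+ cells. In Thy1+ cells 15 of 17 were then called lower on day 6, with a median of -1.72; without the day 6 Thy1+ M2 array these were 13 of 17 and -1.77. The S phase mean was between 9.58 and 10.05 on SSEA1+ arrays, between 8.69 and 9.58 on double-negative arrays and between 7.24 and 9.42 on Thy1+ arrays. Over the 15 group means its correlation was 0.955 with Dnmt1 and 0.959 with Uhrf1, against 0.559 with Dnmt3a, 0.618 with Dnmt3l and 0.775 with Dnmt3b. The mean of the pluripotency markers gave the other order: 0.949 with Dnmt3b, 0.933 with Dnmt3l and 0.858 with Dnmt3a, against 0.495 with Dnmt1 and 0.483 with Uhrf1. The choice of probe set favours the Dnmt3a value, since 1423064_at stood for the gene through its level in GFP+ and iPS cells. Dnmt3a 1423063_at and 1460324_at were lowest in iPS cells, so the value does not hold for the gene as a whole. With the fibroblast marker mean the correlation was negative for every member: -0.888 (Dnmt3b), -0.828 (Uhrf1), -0.822 (Dnmt1), -0.762 (Dnmt3l) and -0.702 (Dnmt3a). The points share arrays and normalization, so these values describe the 15 groups. At like S phase means the maintenance pair still differed between groups. The S phase mean was 7.78 and 7.90 in MEFs and 7.74 (M2) and 7.79 (M3) in day 6 Thy1+ cells. In day 9 Thy1+ cells it was 7.80. In the same order Dnmt1 read 8.27 and 8.38, 7.36 and 7.51, and 7.45. Uhrf1 read 9.39 and 9.40, 10.13 and 8.61, and 8.30. Whether the cycling state of the sorted cells plays a part in the Dnmt1 and Uhrf1 differences was not tested.

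**Figure D3:**
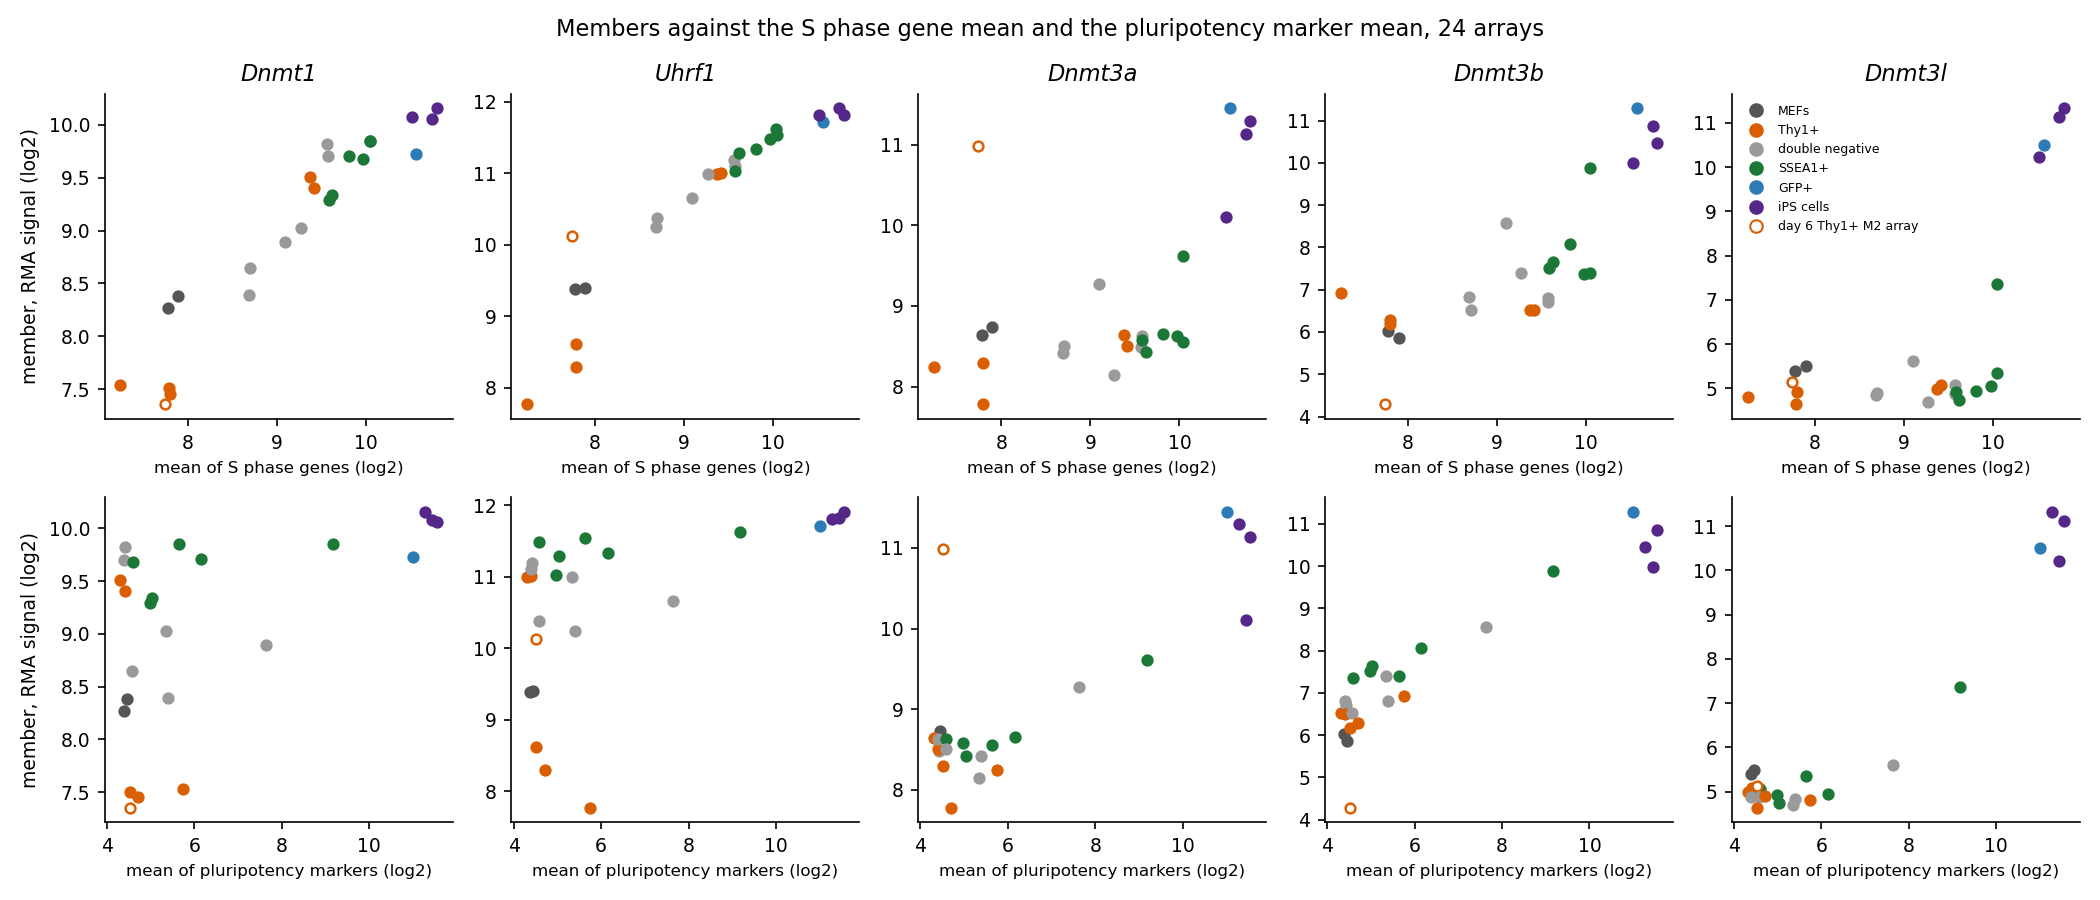
Each member (RMA signal, log2) against the mean of 17 S phase genes (upper row) and the mean of 9 pluripotency markers (lower row), 1 point per array on 24 arrays; the open circle is the day 6 Thy1+ M2 array. Dnmt1 and Uhrf1 rise with the S phase mean, but both read lower in day 9 Thy1+ cells than in MEFs at a like S phase mean. Dnmt3b and Dnmt3l are high where the pluripotency marker mean is high.

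The promoters of the members were read because the maintenance pair moved with replication genes, many of which are known targets of E2F factors. Below are the 250 bases before a transcript start of Dnmt1 and Uhrf1, beside Dnmt3b and Dnmt3l, from RefSeq on GRCm38.p6, 5′ to 3′ on the gene's strand, with E2F-type words in capitals. The Dnmt1 stretch is chr9:20952624-20952873 (minus strand, start 3 of 3 listed) and the Uhrf1 stretch chr17:56304063-56304312 (plus strand, start 2 of 2). Those of Dnmt3b, chr2:153649199-153649448 (the only start listed), and Dnmt3l, chr10:78042037-78042286 (start 1 of 3), are on the plus strand. Starts 2 and 3 of Dnmt1 lie 6909 and 7265 bases past its first start, so the Dnmt1 stretch lies downstream of start 2. Start 2 of Uhrf1 lies 976 bases past its start 1, so the Uhrf1 stretch lies downstream of start 1. For the transcripts of those earlier starts these bases are not upstream sequence.
Dnmt1: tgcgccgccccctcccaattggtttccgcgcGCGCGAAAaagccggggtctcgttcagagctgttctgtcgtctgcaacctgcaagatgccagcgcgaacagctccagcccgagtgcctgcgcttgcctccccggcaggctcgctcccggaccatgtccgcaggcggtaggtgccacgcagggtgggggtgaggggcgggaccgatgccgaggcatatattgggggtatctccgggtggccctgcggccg
Uhrf1: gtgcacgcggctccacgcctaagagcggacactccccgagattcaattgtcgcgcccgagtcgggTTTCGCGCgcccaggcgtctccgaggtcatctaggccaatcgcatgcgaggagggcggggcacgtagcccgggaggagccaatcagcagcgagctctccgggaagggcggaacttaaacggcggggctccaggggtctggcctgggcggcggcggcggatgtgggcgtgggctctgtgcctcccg
Dnmt3b: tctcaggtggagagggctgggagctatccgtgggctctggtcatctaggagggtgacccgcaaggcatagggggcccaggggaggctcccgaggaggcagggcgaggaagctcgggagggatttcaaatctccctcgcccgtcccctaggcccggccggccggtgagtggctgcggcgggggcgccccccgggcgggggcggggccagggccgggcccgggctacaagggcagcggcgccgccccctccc
Dnmt3l: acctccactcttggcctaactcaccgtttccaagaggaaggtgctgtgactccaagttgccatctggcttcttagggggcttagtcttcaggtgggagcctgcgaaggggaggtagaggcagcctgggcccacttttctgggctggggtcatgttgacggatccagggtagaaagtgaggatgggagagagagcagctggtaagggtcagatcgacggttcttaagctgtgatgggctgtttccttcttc

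The 4 words searched were TTTCCCGC, TTTGGCGC, TTTCGCGC and TTTGCCGC, on both strands, in windows of 300 bases that reach 50 bases past each start, and the matches below do not overlap each other. The starts of Dnmt1 and Uhrf1 shown are the ones whose windows held a word, and their other starts held none. The Dnmt1 window held 2 matches, of which 1 lies after the start and is not shown, and the Uhrf1 window held 1. No window of Dnmt3a (3 starts), Dnmt3b or Dnmt3l (3 starts) held any, which says only that these letters were not in these windows. Such a word was in 2.26% of 32851 windows of all genes, which is 2.6% of 27025 genes. It was in the windows of 8 of 16 S phase genes that had an entry (50%). Of the members it was in 2 of 12 windows and 2 of 5 genes. These shares were not matched for CpG content, so they do not set the members against like windows. The ratio of observed to expected CpG was 0.91 for the Dnmt1 window shown, 0.959 for Uhrf1 and 0.694 for Dnmt3b. The windows of the other starts had 0.101 and 0.5 for Dnmt1 and 0.472 for Uhrf1, so the windows shown for these genes, picked for a word that holds CpGs, were also the ones richest in CpG. Those of Dnmt3a had 0.964, 1.06 and 0.468 and those of Dnmt3l 0.272, 0.219 and 0.114, where the median of all windows was 0.384. A match is a description of the sequence and was not set against any binding data here.

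In SSEA1+ cells Dnmt3b, a de novo methyltransferase, read 7.36 and 7.39 on day 3, 7.51 and 7.65 on day 6, 8.07 on day 9 and 9.88 on day 12, then 11.29 in day 12 GFP+ cells. In double-negative cells it read 6.52 and 6.82 on day 6, 7.40 on day 9 and 8.57 on day 12, and in Thy1+ cells 6.28 on day 9 and 6.92 on day 12. In this probe set, 1449052_a_at, the SSEA1+ arrays were above the double-negative and Thy1+ arrays of the same day at every time. From day 6 to days 9 and 12 of SSEA1+ cells the difference was 1.40 (SE 0.42, limma adjusted p = 0.0701), not a call. From day 3 to day 6 it was 0.20 (SE 0.42, limma adjusted p = 0.949). The later difference became a call without the day 6 Thy1+ M2 array in the fit (limma adjusted p = 0.000615). The second probe set, 1418351_a_at, stayed between 4.72 and 5.80 in MEFs and in all fractions up to day 9. On day 3 its SSEA1+ arrays (5.30 and 5.57) overlapped its Thy1+ arrays (5.17 and 5.31). On day 12 it read 6.57 in double-negative, 7.69 in SSEA1+ and 10.05 in GFP+ cells.

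Dnmt3l, the cofactor without catalytic activity, lay between 4.64 and 5.61 on all arrays of MEFs and sorted cells except day 12 SSEA1+ cells at 7.36 and day 12 GFP+ cells at 10.50. From day 6 to days 9 and 12 of SSEA1+ cells it rose by 1.32 (SE 0.28, limma adjusted p = 0.0112), the only 1 of 5 members called (1.1% of all genes were called higher). Without 1 or the other day 6 SSEA1+ array the value was 1.24 or 1.41, and neither was a call. The day 12 GFP+ array read 3.14 above the day 12 SSEA1+ array. With 1 array each, the test assumes that they vary like the replicated groups, and it has no replicate check of these fractions. Under that assumption Dnmt3l was the only 1 of 5 members called (SE 0.39, limma adjusted p = 0.000123; 2.46% of all genes were called higher). Dnmt3a (1.84) and Dnmt3b (1.41) were not called there (limma adjusted p = 0.218 and 0.179), but both were without the day 6 Thy1+ M2 array in the fit (limma adjusted p = 0.00416 and 0.00351). The second Dnmt3b probe set, 1418351_a_at, was higher by 2.36 (SE 0.49, limma adjusted p = 0.00726). Dnmt1 (-0.12) and Uhrf1 (0.09) were close in the 2 fractions, with SEs of 0.18 and 0.44.

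Between iPS cells and day 12 GFP+ cells 0 of 5 members were called, while 7.23% of all genes were called in either direction. Dnmt3l differed by 0.39 (SE 0.32), Dnmt1 by 0.37 (SE 0.15), Uhrf1 by 0.13 (SE 0.36), Dnmt3a by -0.60 (SE 0.67) and Dnmt3b by -0.85 (SE 0.48), with limma adjusted p between 0.0935 and 0.846. A p above the threshold does not show equal levels. Without the day 6 Thy1+ M2 array in the fit Dnmt1 (limma adjusted p = 0.0431) and Dnmt3b (0.0139) passed the p threshold, under 2-fold. Among the second probe sets, Uhrf1 1415811_at was higher in iPS cells by 1.29 (SE 0.25, limma adjusted p = 0.00263) and Dnmt3b 1418351_a_at lower by -1.31 (SE 0.40, limma adjusted p = 0.0346). The 3 iPS arrays were not alike in the de novo genes. Array 1-3 was lowest of the 3 in Dnmt3a (10.11 against 11.14 and 11.30), Dnmt3b (9.99 against 10.46 and 10.86) and Dnmt3l (10.22 against 11.12 and 11.33), while in Dnmt1 it read 10.08 against 10.06 and 10.16, and in Uhrf1 11.81 against 11.81 and 11.91. Its fibroblast marker mean was the highest of the 3, at 7.46 against 6.84 (1-5) and 6.51 (1-6), and the part of this in the lower values was not tested.

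Ranked by group mean, each member had 14 gaps between neighbouring groups, and few were larger than 2 standard errors. Dnmt1 was lowest in Thy1+ cells of days 6, 9 and 12 (7.43, 7.45 and 7.53), followed by MEFs (8.32), with 2 gaps over 2 standard errors, below MEFs and above day 6 double-negative cells (8.52). From day 12 double-negative cells upward no neighbours differed beyond their spread. Uhrf1 had gaps above day 9 Thy1+ cells (8.30) and above MEFs (9.39). The first of these was to the day 6 Thy1+ mean and was 0.32 with the M3 array alone. Dnmt3b had 1 gap, below day 12 SSEA1+ cells. Dnmt3l had 2, below and above day 12 SSEA1+ cells. Dnmt3a had 1, below iPS cells, and its GFP+ and iPS means (11.45 and 10.85) did not differ beyond their spread.

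The genes whose group means were most like each member, by correlation over the 15 groups of the 11807 genes, were as follows. For Dnmt1 they were Lsm8, Mad2l1 and Rrm2 (each 0.982), Sgo1 (0.979) and Cdk1 (0.978). For Uhrf1 they were Top2a (0.989), Ube2c (0.983), Cdc25c and Cenpa (each 0.982) and Hdgf (0.981). Dnmt3l was followed most closely by Tcl1 (0.994), Zfp42 (0.993), Dppa4 (0.992), Cyct (0.99) and Trap1a (0.989). Dnmt3b was followed by Nrf1 (0.975), Tex9 (0.973), Snrpn (0.968), Nudt11 and Lig3 (each 0.965). The closest to Dnmt3a were lower, Celsr3 (0.951), Ldhc (0.938), Icosl and Slc1a1 (each 0.934) and Spats2 (0.928). Among the members themselves, Dnmt1 and Uhrf1 had a correlation of 0.947, Dnmt3a and Dnmt3l 0.91 and Dnmt3b and Dnmt3l 0.855, whereas Dnmt3l and Uhrf1 had 0.471. All Dnmt3a values here are those of 1423064_at, which stood for the gene through its level in GFP+ and iPS cells. That choice favours a likeness to genes high in these cells, Dnmt3l among them.

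Of 7 measured partners of the maintenance pair, 5 were called higher in iPS cells than in MEFs and 0 lower (median difference 1.08, against 0.01 over all genes). Among all genes 15.4% were called higher and 15.3% lower. Hells, a chromatin remodeller needed for normal DNA methylation, was higher by 3.99 (limma adjusted p = 5.6e-10), Lig1, the replicative DNA ligase, by 3.06 (5.4e-11) and Pcna, the sliding clamp at the replication fork, by 1.96 (5.8e-05). Trdmt1, a relative of the methyltransferases that acts on transfer RNA, was higher by 1.08 (limma adjusted p = 0.0002), as was Usp7, a deubiquitinase that binds both Dnmt1 and Uhrf1 (5.2e-05). Hells, Lig1 and Pcna were also the 3 called higher in each day 3 fraction, where 5.27% to 7.33% of all genes were called higher. From day 3 to day 6 of Thy1+ cells the changes were -2.35 (Hells), -1.63 (Lig1) and -1.42 (Pcna), and with Trdmt1 (-1.29) these were the 4 called lower. Of all genes 4.57% were called lower there. Without the day 6 Thy1+ M2 array 3 were called, Hells (-2.31), Lig1 (-1.72) and Trdmt1 (-1.44), and Pcna was at -0.63, under 2-fold. Hells read 6.63 and 6.79 in MEFs, 8.82 and 8.84 in day 3 SSEA1+ cells, 5.56 and 5.62 in day 6 Thy1+ cells and 10.29, 10.70 and 11.11 in iPS cells.

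Of 4 measured readers of methylated CpG, 2 were called lower in iPS cells than in MEFs, Mbd2 by -1.91 (limma adjusted p = 6.7e-06) and Mbd1 by -1.06 (0.0044). For this and the next lists, 15.3% of all genes were called lower and 15.4% higher in iPS cells than in MEFs. Mbd2 stayed between 10.09 and 10.89 on the sorted arrays other than GFP+ cells and the day 6 Thy1+ M2 array (9.44). It read 8.36 in GFP+ cells, where its difference from day 12 SSEA1+ cells was -1.73, with 1 array each. Of 5 measured demethylation genes, Mbd4 (1.79) and Tdg (1.27), both DNA glycosylases, were called higher in iPS cells than in MEFs. Of 7 measured genes that target methylation or link it to histones, 4 were called higher in iPS cells. They were Dppa3 (5.41), a maternal factor that binds Uhrf1, the histone methyltransferases Suv39h2 (2.53) and Setdb1 (1.24), and the corepressor Trim28 (1.31). Dppa3 read 5.86 in day 12 SSEA1+ cells and 8.94 in GFP+ cells (difference 3.09, 1 array each). In the supply of methyl groups, 3 of 5 measured genes were called higher in iPS cells, Shmt1 (3.24), Mthfd1 (2.84) and Ahcy (1.17), enzymes of folate and methionine metabolism.

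Germline genes that are known to be silenced by promoter methylation in somatic cells were also followed, with 10 measured. Between iPS cells and MEFs 7 were called higher (median difference 2.91, against 0.01 over all genes), as were 15.4% of all genes. Day 12 GFP+ and SSEA1+ cells had 1 array each, so the comparisons with GFP+ cells rest on that single GFP+ array. Of all genes, 2.46% were called higher in GFP+ than in day 12 SSEA1+ cells and 3.99% in iPS than in GFP+ cells. In day 12 GFP+ cells 4 were called higher than in day 12 SSEA1+ cells, Hormad1 (2.97), Sycp3 (2.60), Dazl (1.84) and Ddx4 (1.67), and iPS cells exceeded GFP+ cells in 7, with a median difference of 1.62. Dazl, an RNA-binding protein of germ cells, read 3.72 in day 12 SSEA1+ cells, 5.56 in GFP+ cells and 7.82, 8.04 and 8.21 in iPS cells. All 4 genes called higher in GFP+ cells were among the 7 called higher again in iPS cells. The other 3, Tex11, Stk31 and Taf7l, had GFP+ to SSEA1+ differences of 0.34, 0.88 and 0.63 that passed no threshold. DNA methylation itself was not measured on these arrays.

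Day 6 SSEA1+ cells split by EpCAM were read on the smaller design, whose values were not compared with those above. Dnmt3b read 7.76 and 7.81 in EpCAM- cells and 8.66 and 8.78 in EpCAM+ cells, with a difference of 0.94 (SE 0.089, limma adjusted p = 0.00953). Uhrf1 read 10.92 and 11.17 in EpCAM- cells and 11.65 and 11.73 in EpCAM+ cells, with a difference of 0.65 (SE 0.11, limma adjusted p = 0.0446). The arrays did not overlap for either gene, and the share of all genes without overlap was not counted. Both differences were under 2-fold, so that 0 of 5 members were called, where 0.75% of the 12394 genes of this table were called in either direction. In the fit over all probe sets the second Dnmt3b probe set gave 0.88 (limma adjusted p = 0.0306), and the 2 Uhrf1 probe sets gave 0.65 and 0.57 (0.0638 and 0.0549), above the threshold. Dnmt1 (0.08, SE 0.12, probe set 1435122_x_at), Dnmt3a (0.05, SE 0.085, 1423066_at) and Dnmt3l (0.01, SE 0.093) had overlapping arrays or differences within their error. The Dnmt1 probe set of the larger design, 1422946_a_at, read 9.94 and 10.25 in EpCAM- and 10.30 and 10.37 in EpCAM+ cells. In the same order Dnmt3a 1423064_at read 6.45 and 6.49, then 6.54 and 6.63. Lower in EpCAM+ cells were 1460324_at (8.05 and 8.07, then 7.78 and 7.89) and 1423063_at (8.44 and 8.55, then 8.31 and 8.35). No probe set of either gene was called. Beside these, 6 of 10 pluripotency markers were called higher in EpCAM+ cells (0.48% of all genes) and 2 of 10 fibroblast markers lower (0.27% of all genes). Tet1, which oxidises methylated cytosine and was measured on this design, read 5.30 and 5.38 in EpCAM- cells and 6.64 and 6.75 in EpCAM+ cells (difference 1.36, limma adjusted p = 0.0039).

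**Figure D4:**
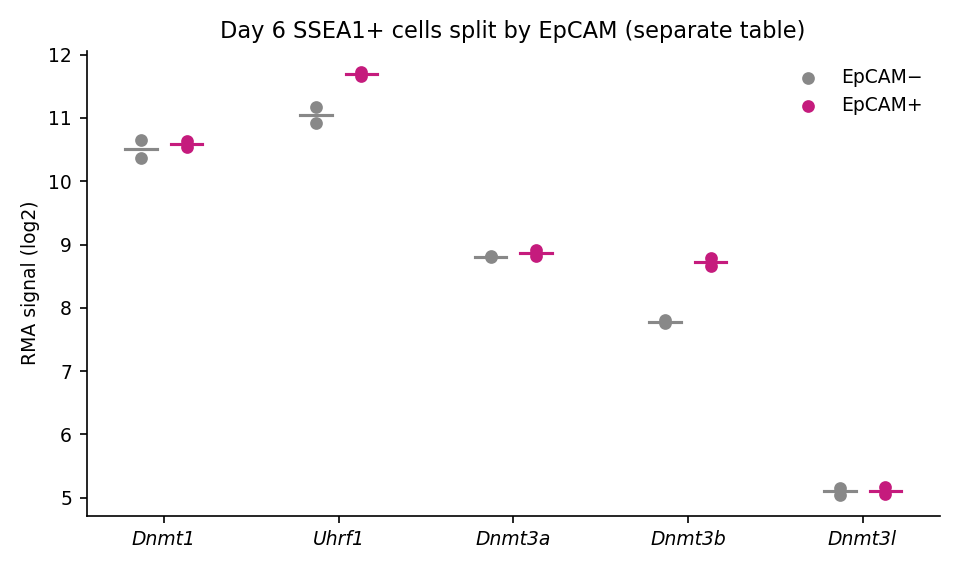
RMA signal (log2) of the 5 members on the 2 EpCAM- and 2 EpCAM+ arrays of day 6 SSEA1+ cells; points are arrays and bars are group means. Dnmt3b and Uhrf1 do not overlap between the groups, by 0.94 and 0.65 in their means.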

How the data were processed

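Microarrays measured gene expression in fibroblasts, sorted reprogramming cells and iPS cells, grouped here by their labels. The values are RMA signals in log2 units, 1 per probe set, as deposited; the submitters' notes name RMA without a version. Which arrays were normalized together is not given in the sources used here. Array annotation gave 1 gene symbol to 18003 of 22716 probe sets on the 24 arrays (287 had several, 4426 none) and to 20393 of 22690 on the 4 (691 several, 1606 none), and only these were used. The probe set of highest mean stood for each gene, and 0 arrays were identical. The number of arrays limits the precision.

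For the 24 arrays, limma 3.58.1 (R 4.3.3) was fitted over 11807 genes with 15 group means (9 residual degrees of freedom), or with day and fraction over the 18 sorted arrays (12 residual degrees of freedom). The EpCAM fit used its own 4 arrays and 12394 genes (2 residual degrees of freedom). A call needed a Benjamini-Hochberg adjusted p under 0.05 and a log2 difference of at least 1, and the fit was tested on simulated data. Promoter windows came from RefSeq (GRCm38.p6), where all 5 members matched by symbol. Python 3.11.15, pandas 2.3.3 and matplotlib 3.10.9 made the tables and plots. All 5 members were named, any gene of a list could be, and so were the 5 genes of highest correlation with each member over the 15 group means. Members and lists were chosen with earlier results of these data known; the promoter words were chosen after the course of the members was seen. Alternatives changed the minimum fold, the filter on dim genes (25%), the scaling, the probe set rule, the variance prior, the replicate block and the arrays in the fit. Choosing the probe set without GFP+ and iPS arrays, and list counts without the day 6 Thy1+ M2 array, were added after the data were seen.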

Additional observations from a re-analysis of the deposited data

Results flagged for a closer look

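The change from day 3 to days 9 and 12 differed between SSEA1+ and Thy1+ cells, by the interaction of day and fraction in limma, for Uhrf1 (2.94, SE 0.44, adjusted p = 0.000512) and Dnmt1 (1.97, SE 0.18, adjusted p = 9.42e-06). In Thy1+ cells Uhrf1 read 11.00 and 11.01 on day 3, 8.30 on day 9 and 7.77 on day 12, and in SSEA1+ cells it read 11.48 and 11.54, then 11.34 and 11.63. Dnmt1 read 9.41 and 9.51, then 7.45 and 7.53 in Thy1+ cells, and 9.68 and 9.85, then 9.71 and 9.85 in SSEA1+ cells. The day 9 and day 12 values are from 1 array each.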

How the results depend on the processing

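Of 411 re-runs of the 30 called differences, 392 kept the call, 18 lost it and 1 changed sign. The count of members called moved by over 1.5 times as follows (other counts moved by at most 1), and the cause was not tested unless the setting itself gives it. With only the groups compared in the fit it was 1 on day 6 (SSEA1+ against Thy1+), 1 for Thy1+ cells from day 3 to day 6, 2 for late against day 6 SSEA1+ cells and 5 for the interaction. With no minimum fold it was 2 for late against day 6 SSEA1+ cells, 2 for late Thy1+ cells against MEFs and 2 for EpCAM. With the mean of all probe sets it was 2 for late against day 6 SSEA1+ cells, 0 for late Thy1+ cells against MEFs and 2 for GFP+ against SSEA1+ cells. Counting a member with at least 1 probe set called, it was 2 for GFP+ against SSEA1+ cells and 2 for iPS against GFP+ cells. Leaving out arrays gave 0 to 2 for late against day 6 SSEA1+ cells, 3 for GFP+ against SSEA1+ cells and 2 to 4 for the interaction. With the replicate name as a block it was 2 for late against day 6 SSEA1+ cells (Dnmt3b 1.56, limma adjusted p = 0.0483), and no other count moved. Deviations of same-named arrays had a correlation above 0 in 8 of 21 pairs of groups and over 0.1 in 5 (range -0.207 to 0.214), so the names were not taken to pair the arrays.

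With the probe set chosen without GFP+ and iPS arrays, an alternative added after the data were seen, Dnmt3a changed sign for iPS cells against MEFs (-0.46, limma adjusted p = 0.00287), and also for SSEA1+ day 6 against day 3 (0.48), late against day 6 SSEA1+ (-0.067), late Thy1+ against MEFs (0.38), late SSEA1+ against Thy1+ (-0.15), GFP+ against SSEA1+ (-0.35), the interaction (-0.19) and SSEA1+ against double-negative cells (-0.044). Other signs turned only in differences that passed no threshold in the fit reported. With the mean of all probe sets these were Dnmt3a (day 3 SSEA1+ against Thy1+ -0.032, SSEA1+ day 6 against day 3 0.45, late Thy1+ against MEFs 0.22, EpCAM -0.056) and Uhrf1 (GFP+ against SSEA1+ -0.035). After quantile scaling Dnmt3l turned on day 6 (0.00047) and for EpCAM (-0.0022), and after subtracting array medians Dnmt3a over all days (0.0011). Leaving out arrays gave ranges across 0 for Dnmt3a (day 3 SSEA1+ against Thy1+ -0.053 to 0.084, day 6 -2.49 to 0.21, Thy1+ day 6 against day 3 -0.28 to 2.41, all days -0.26 to 0.48), Dnmt3l (day 6 -0.31 to 0.19, Thy1+ day 6 against day 3 -0.40 to 0.10, EpCAM -0.050 to 0.071) and Dnmt1 (EpCAM -0.065 to 0.22). No detection calls were used, so low levels of Dnmt3l carry no statement of presence.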
